A study of Arabidopsis thaliana with 7 samples.

Results

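Of the 27444 protein-coding genes on the 5 nuclear chromosomes of Arabidopsis thaliana, 146 held 3 or more peak centres of ZF-DDR5 between their start and end. They were chosen by those centres alone, from a chromatin immunoprecipitation sequencing (ChIP-seq) peak list of 9999 intervals, with the middle of each interval taken as its centre. The members make up 0.532% of the protein-coding genes. Because the number of centres chose them, their number of centres, length and peak density are given as descriptions. No test was made on any of them.

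The list belongs to ZF-DDR5 replicate 1, seedlings at day 12 that carry DDR5 joined to an engineered zinc finger (ZF). The series holds 7 ChIP-seq samples, of which ZF-DDR5 has 2, ZF-DDR4 has 2, untransformed Col-0 has 2 and a further Col-0, marked g3 like ZF-DDR5, has 1. The labels' protocol speaks of independent homozygous T3 lines of a DDR4 fusion and of an antibody to the FLAG tag. It is repeated for ZF-DDR5, whose own labels name neither the promoter of the transgene nor an antibody. Every value below comes from 1 list, so no value has a replicate error, and whether Col-0 seedlings would show peaks in the same genes was not analysed here. The spread over the 5 chromosomes is given in its place. The depth behind the peaks is unknown, as the list has positions only.

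DDR proteins carry a DDT domain, a fold through which proteins join the imitation switch (ISWI) chromatin remodellers that slide and space nucleosomes. Zinc fingers fused to such proteins are used in Arabidopsis to bring them to a chosen sequence, the repeats at the homeodomain gene FWA being the usual target. ChIP-seq reports where the fusion is enriched, at the designed target and elsewhere. A gene with several peaks is one along which the called enrichment falls into several separate stretches. FWA itself was not among the 146 genes: it had 1 centre inside its 4105 bp.

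Most genes held no centre at all. There were 20072 genes with 0 centres, 6306 with 1, 920 with 2, 115 with 3, 21 with 4, 9 with 5 and 1 with 6. The threshold therefore fell between 920 genes just outside it and 115 just inside. Genes with exactly 3 centres had a median length of 4860 bp and a median of 0.617 centres per kb, against 3516 bp and 0.569 per kb in genes with exactly 2. The 146 genes contained 480 different peaks, which were 5.65% of the 8493 peaks centred in protein-coding genes. When the wider 50% of the peaks alone were used, 30 genes reached 3 centres.

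The 146 genes were long. Their median length was 5822 bp (quartiles 4087 and 8939 bp), against 2078 bp (quartiles 1323 and 3030 bp) over all protein-coding genes. The shortest was MEE45 at 2081 bp and the longest AT1G48090 at 26499 bp. Length entered the choice through the span in which centres were counted. Median length was 1886 bp in genes with 0 centres, 2509 bp with 1, 3516 bp with 2, 4860 bp with 3, 7755 bp with 4 and 11909 bp with 5. The single gene with 6 centres spanned 23544 bp.

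The share of genes with 3 or more centres was higher in each longer class. It was 0 of 13007 genes up to 2 kb, 0.0943% of those from 2 to 3 kb and 0.665% of those from 3 to 4 kb. From 4 to 5 kb it was 1.93%, from 5 to 7.5 kb 2.68% and from 7.5 to 10 kb 7.72%. Among the 122 genes over 10 kb, 30 (24.6%) held 3 or more centres, 27 held 2, 37 held 1 and 28 held 0. Over 5 kb the share was 83 of 1639 genes, or 5.06% (Wilson 95% interval 4.10% to 6.23%, which covers counting error only).

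**Figure D1:**
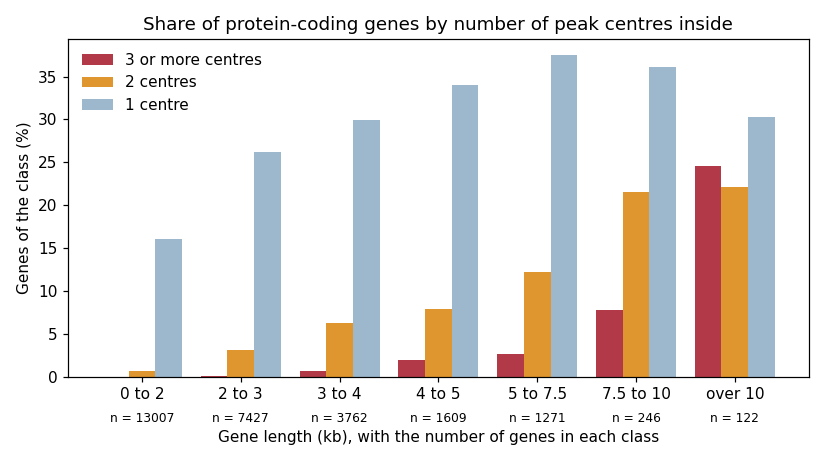
Share of protein-coding genes (y axis, %) that held 3 or more, 2 or 1 peak centres, in 7 classes of gene length (x axis, kb, with the number of genes under each class). The bars for 3 or more centres are lowest among the shorter genes and reach 24.6% in genes over 10 kb.

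Long genes differed in their number of centres, and whether by more than an even density of peaks would give was not tested. Of the 20 longest protein-coding genes, all of 15294 bp or more, 8 held 3 or more centres, 5 held 2, 6 held 1 and 1 held none. Among long genes outside the 146, AT4G39420 (16023 bp), SPK1 (13445 bp, a guanine nucleotide exchange factor for ROP GTPases) and ACC2 (12636 bp, an acetyl-CoA carboxylase) held 0. The longest protein-coding gene, ATM (27265 bp), a kinase of the DNA damage response, held 1, as did TOR (17748 bp), the growth-controlling kinase. These 5 genes are named for their length and were picked after their values were seen. Pooled over all genes in 5 length classes that each hold about the same number of members, density lay between 0.119 and 0.131 centres per kb, with no steady rise or fall from the shorter to the longer classes.

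Within the 146 genes, density ran against length. The median was 0.558 centres per kb (quartiles 0.360 and 0.740), and the range was 0.180 per kb in AT2G25730 to 1.44 per kb in MEE45. Across the 146 genes, which are not independent replicates, Spearman's rho between length and density was -0.964. With 115 genes at exactly 3 centres the density is nearly the inverse of the length, so that value follows from how the genes were chosen. The number of centres went up with length across the 146 genes (rho 0.447), as did the median spacing of the centres (rho 0.635).

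Within classes of length the density of the members was the higher, as the rule requires. The classes match length only roughly: the members' median length was 3557 bp in the shortest class, against 2787 bp in genes with 1 centre, and 8396 bp from 6625 to 10100 bp, against 7481 bp. In the class of 2081 to 3907 bp, the 30 members had a median of 0.855 centres per kb, against 0.359 in the 2811 genes with 1 centre. From 4843 to 6601 bp, the 29 members had 0.546 per kb, against 0.183 in the 479 genes with 1 centre. From 10152 to 26499 bp, the 29 members had 0.269 per kb, against 0.0868 in the 34 genes with 1 centre. In that longest class the members were 25% of the 116 genes, and a further 27 genes had 0 centres.

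**Figure D2:**
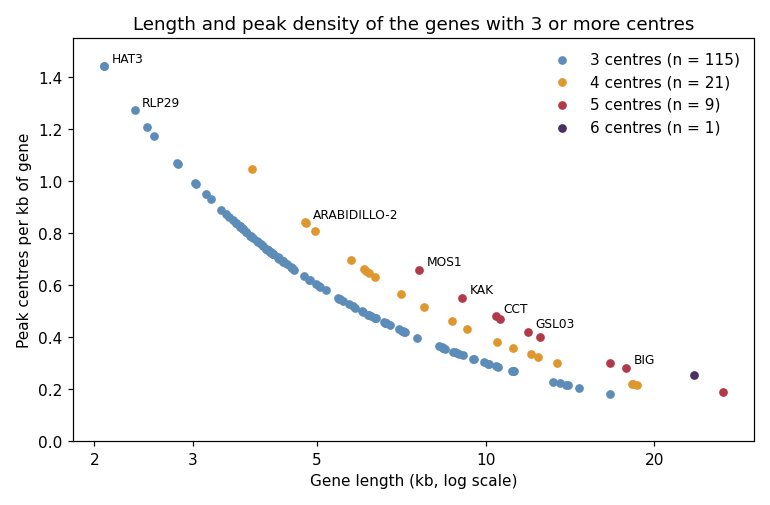
Peak centres per kb (y axis) against gene length (x axis, kb, log scale) for the 146 genes, 1 point per gene, coloured by the number of centres. Points of equal number lie on 1 falling curve each, from MEE45 and HAT3 at 1.44 per kb down to genes near 0.180 per kb, and at equal density a gene with more centres lies farther to the right.

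The densest genes were short genes with 3 centres. MEE45, named for maternal effect embryo arrest, had peaks at chr4:115092-115415, chr4:115768-116180 and chr4:116553-117046 (TAIR10), so that 59.2% of its 2081 bp lay under a peak. HAT3, a class II homeodomain-leucine zipper regulator of leaf and shoot patterning, had peaks at chr3:22320668-22321025, chr3:22321625-22322069 and chr3:22322280-22322679, covering 56.9% of 2082 bp. Both had 1.44 centres per kb, at spacings of 633 to 1001 bp in HAT3 and 721 to 826 bp in MEE45.

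RLP29, a receptor-like protein, followed with 1.27 per kb and the highest share of a gene under peaks, 66.6%. ROPGEF1, which activates ROP GTPases, had 1.21 per kb, from peaks at chr4:17986192-17986842, chr4:17987221-17987624 and chr4:17987962-17988642. AT3G59000 had 1.17 per kb, and MMD1, a PHD-finger protein needed for male meiosis, had 1.07 per kb. ULT1, a trithorax-group regulator of floral meristems, also had 1.07 per kb, and its last centre lay 15.5 bp inside the edge of higher coordinate. The remaining 5 of the 12 densest were AT1G19880, with 4 centres and 1.05 per kb, and AT5G51150, HDG4, AT1G10890 and SUT4, with 3 centres each and 0.929 to 0.991 per kb. HDG4 is a class IV homeodomain-leucine zipper protein, the class to which FWA belongs, and SUT4 is a sucrose transporter.

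The genes with 5 or 6 centres included several large regulatory and structural proteins. AT4G17140, whose symbol the gene table does not give, held the most. Its 6 peaks lay at chr4:9615285-9615586, chr4:9622097-9622871, chr4:9624370-9624936, chr4:9626190-9627287, chr4:9629167-9629551 and chr4:9633983-9634298. They covered 14.6% of its 23544 bp, with spacings from 2086 to 7049 bp.

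Among the 9 genes with 5 centres, MOS1 was the shortest (7601 bp) and the densest (0.658 per kb). MOS1 is a regulator of immune receptor gene expression. Its peaks lay at chr4:12732501-12732919, chr4:12734240-12734748, chr4:12735393-12736538, chr4:12737062-12737524 and chr4:12739397-12739853, and reached from 2.84% to 93.8% of the gene's length. KAK, a HECT ubiquitin ligase that controls trichome branching, had 5 centres in 9078 bp (0.551 per kb). Its peaks lay at chr4:18041462-18041857, chr4:18042921-18043816, chr4:18044238-18044807, chr4:18045468-18045874 and chr4:18046282-18046577. The stretch from its first centre to its last was 52.5% of the gene, and the peaks covered 28.3% of the gene.

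CCT, the MED12 subunit of the Mediator kinase module, had 5 centres in 10436 bp (0.479 per kb), spaced 1461 to 3074 bp apart. GSL03, a callose synthase, had 5 in 11909 bp (0.420 per kb), spaced 796 to 2542 bp apart. POK2, a kinesin that orients the division plane, had 5 in 12530 bp (0.399 per kb). Its first 4 centres lay between 31.5% and 53.3% of its length, and the last at 95.8%, after a stretch of 5329 bp.

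SWEETIE, a large protein linked to sugar metabolism, had 5 centres in 16684 bp (0.300 per kb), all in the part up to 59.3% from the edge of lower coordinate. BIG, a very large protein required for auxin transport, had 5 in 17804 bp (0.281 per kb). It had 2 centres up to 31.3% of its length, then a stretch of 8737 bp without a centre, then 3 centres from 80.3% to 98.5%. AT1G48090 had 4 of its 5 centres in the first 25.7% of its 26499 bp and the other at 61.6%. AT1G18270 had 5 in 10624 bp (0.471 per kb) and held the widest peak of any of the 146 genes, at 1898 bp.

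The 21 genes with 4 centres ran from AT1G19880 (3819 bp) to ILA (18607 bp), a HEAT-repeat protein of immunity and translational control. Near the short end were ARABIDILLO-2 (4757 bp, 0.841 per kb), an armadillo-repeat protein of root branching, AT5G66600 (4770 bp, 0.839 per kb) and SPS2F (4961 bp, 0.806 per kb), a sucrose-phosphate synthase. The cytokinin receptor HK3 had 4 in 5744 bp (0.696 per kb) and AT5G66310 had 4 in 6056 bp (0.661 per kb). GTA2, an SPT5-type transcription elongation factor, had 4 in 6113 bp (0.654 per kb).

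GN, the GNOM exchange factor of vesicle traffic, had 4 in 6192 bp (0.646 per kb). ML1, a MEI2-like RNA-binding protein, had 4 in 6346 bp (0.630 per kb). AT5G12440 (7074 bp), AT4G38120 (7755 bp), GLU1 (8704 bp, ferredoxin-dependent glutamate synthase) and MBD9 (9265 bp, a methyl-CpG-binding-domain protein) had 0.432 to 0.565 per kb. The other genes with 4 centres were over 10 kb long and had 0.215 to 0.382 per kb. They were the callose synthases GSL04 and CALS1, AT3G60961, emb2410, the ABC transporter ABCA1, AT4G36080, AT2G17930 and ILA.

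**Figure D3:**
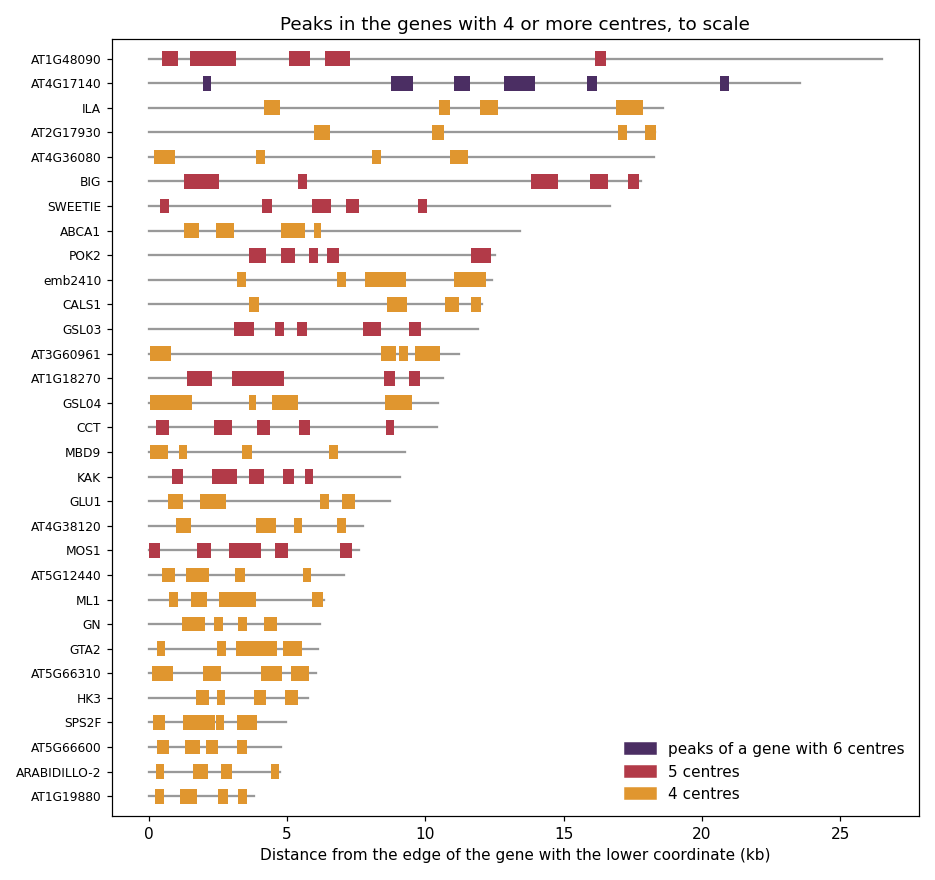
Peaks drawn to scale along the 31 genes with 4 or more centres, longest gene at the top (x axis, kb from the edge of lower coordinate; the strand is not shown). Each box is 1 peak and its colour gives the number of centres of the gene. In BIG, POK2 and AT1G48090 a stretch of over 5 kb separates centres, whereas the 4 centres of GN lie 870 to 1000 bp apart.

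Neighbouring centres inside the 146 genes lay a median of 1363 bp apart (n = 334 pairs, quartiles 983 and 2204 bp, range 332 to 10570 bp). The median per chromosome averaged 1396 ± 122 bp (SD over 5 chromosomes). In genes with exactly 2 centres the pair lay a median of 1473 bp apart (n = 920, quartiles 1026 and 2186 bp), within that spread of the members' value. Over the whole list, with the stretches between genes included, the median was 6883 bp (n = 9994).

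In classes of equal width, 250 bp each, the members had 56 pairs (16.8%) at 1000 to 1250 bp and 54 (16.2%) at 750 to 1000 bp, nearly the same number. A further 42 pairs lay 1250 to 1500 bp apart, 26 lay 500 to 750 bp apart and 7 lay under 500 bp. At the other end, 17 pairs (5.09%) lay 5000 bp or more apart, against 60.8% of the pairs in the whole list. That contrast follows in part from the choice, since centres of 1 gene can be no farther apart than its length. From edge to edge, neighbouring peaks of a member were separated by a median of 733 bp (range 10 to 9809 bp).

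**Figure D4:**
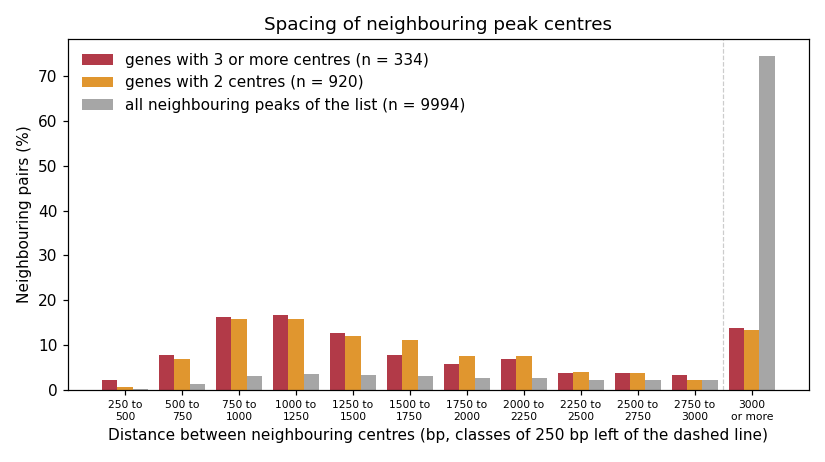
Distance between neighbouring peak centres (x axis, bp, classes of 250 bp up to 3000 bp and 1 open class beyond the dashed line) as a share of pairs (y axis, %), for genes with 3 or more centres, genes with 2 centres and the whole list. Below 3000 bp both sets of genes are highest from 750 to 1250 bp, and the whole list has 74.7% of its pairs at 3000 bp or more.

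The evenness of spacing varied between genes, and how it compares with centres placed at random was not tested. The largest spacing of a gene was a median of 1.75 times its smallest, from 1.01 times in AT1G10890 to 15.3 times in AT3G60961. Among the 31 genes with 4 or more centres, the coefficient of variation of the spacings had a median of 47.5%. It was lowest in GN (7.44%), whose centres were 870, 898 and 1000 bp apart, and highest in AT3G60961 (135%), with spacings from 541 to 8250 bp. AT4G36080, one of the longest of the 146, was even at 17.6%, with spacings of 2963 to 4199 bp.

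The tightest 3 centres of a member spanned a median of 2911 bp. They lay within 1117 bp in GLR2, a glutamate receptor-like channel, and within 13455 bp in AT2G25730, the member of lowest density. The closest pair of centres, 332 bp apart, was in AT3G48410, a gene named here because its spacing was the smallest found.

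Centres were spread along the genes. With each gene cut into 3 equal parts from its edge of lower coordinate, the parts held 164, 162 and 154 of the 480 centres. In 69 of the 146 genes each of the 3 parts held a centre, in 74 genes 2 of the parts did and in 3 genes a single part did. The stretch from the first to the last centre took up a median of 63.9% of the gene (range 12.3% to 95.5%), the lowest being UPL2, a HECT ubiquitin ligase, with 3 centres inside 1630 bp of its 13199 bp. The gene table gives no strand, so neither start nor end of transcription can be told from these positions.

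Distances to the edges of the genes were set beside the share of the summed gene length that lies so close to an edge. Long genes weigh most in that sum, whereas 115 of the members held exactly 3 centres whatever their length. The share of length is therefore not a matched background for the share of centres, and an excess near the edges was not tested. Of the 480 centres, 9 (1.88%) lay within 100 bp of an edge, a band with 2.82% of the summed length. Within 500 bp there were 94 (19.6%), for 14.1% of the length, and within 1000 bp there were 173 (36.0%), for 28.2% of the length. The first and last centres of a gene lay a median of 796 bp inside the edge on their own side. The inner centres lay a median of 2051 bp from whichever edge was nearer. These distances are measured differently and are not compared. In 4 genes with exactly 3 centres, 1 of the centres was within 50 bp of an edge, and 1 gene with 2 centres had a further centre within 50 bp outside. In 7 genes a centre also lay in an overlapping protein-coding gene, and each of those 7 fell under 3 when shared centres were left out.

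The width of a peak was not itself used to choose the members, but it is not independent of the rule. Each interval gives 1 centre however wide it is, so a stretch called as 1 wide peak counts once. The median width of their peaks was 491 bp (n = 480, range 279 to 1898 bp), against 498 bp in genes with 1 centre and 484 bp over the whole list. Within length classes, the median width of the members' peaks minus that in genes with 1 centre averaged -5.47 bp, a difference smaller than its spread over chromosomes (SD 17.9 bp). In the longest class the members' median was 542 bp, against 492 bp in genes with 1 centre, and in the class of 3922 to 4770 bp it was 453 bp, against 521 bp. Of all 9999 peaks, 480 (4.80%) lay in the members, and of the 100, 500 and 1000 widest, 2 (2%), 14 (2.8%) and 32 (3.2%) did. These shares were not tested. Together the peaks covered a median of 29.3% of a member (range 7.77% in SAB to 66.6% in RLP29).

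The members were found on every chromosome. Chromosome 1 had 41, chromosome 2 had 21, chromosome 3 had 28, chromosome 4 had 25 and chromosome 5 had 31. As a share of the protein-coding genes of the chromosome this was 0.532 ± 0.0507% (mean ± SD over the 5 chromosomes). Chromosome 2 had the lowest share, 0.486%, and chromosome 4 the highest, 0.598%. There were 28 pairs of members within 100 kb of each other, and no 2 members were next to each other without a gene between. Gene-poor windows, stretches of 500 kb whose count of protein-coding genes was below 50% of the median window, held 3 members (2.05%), against 2.18% of genes with 1 centre and 6.10% of genes with 0 centres in the same length classes.

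The protein-coding genes next to the members were counted as well, since the rule did not use them. Of the nearest genes on either side, 38.0% had a centre, against 30.6% beside genes with 1 centre and 26.1% beside genes with 0, weighted to the members' length classes. With centres shared by overlapping genes left out, the shares were 34.9%, against 29.2% and 25.8%. When each member was set against genes within 5% of its own length, which was possible for 140 members and was decided after the data were seen, they were 38.9%, against 31.1% and 25.2%.

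By chromosome the share beside members was 43.9%, 28.6%, 41.1%, 30.0% and 40.3% on chromosomes 1 to 5, against 30.0% to 31.5% beside genes with 1 centre in the members' length range. Their means were 36.8 ± 6.98% and 30.7 ± 0.563% (SD over the 5 chromosomes). The gap was smaller than the members' SD, which describes single chromosomes and is not the error of a mean. The values for chromosomes 2 and 4 were thus below those beside genes with 1 centre, and those for chromosomes 1, 3 and 5 above. The 5 kb on either side of a member held a mean of 1.05 centres, against 0.998 for genes with 1 centre and 0.874 for genes with 0. In 44 of the 146 genes those flanks held none.

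The gene table also records names, transcripts and overlaps, set here beside genes of the same length classes. A symbol was given for 82 members (56.2%), against 52.4% of genes with 1 centre and 57.6% of genes with 0 of the same length, and 37.8% of all protein-coding genes. RefSeq listed a mean of 2.63 transcripts per member, against 2.49 and 2.57. Names that mark embryo defects, lethality or arrest belonged to 7 members (4.79%), against 4.24% and 5.33%. Another protein-coding gene overlapped 31.5% of the members, against 29.1% and 26.7%. A gene of another type overlapped 18 members (12.3%), against 12.2% of genes with 1 centre and 7.98% of genes with 0.

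The functions of the members were read from words in their symbols and synonyms, in 16 groups that hold only genes so named. A group leaves out members whose names lack its words, so its share is not that of the role. SUT4, MBD9, ULT1, HAT3 and HDG4, described above, were in no group. In all, 46 members (31.5%) fell in a group, against 28.4% of genes with 1 centre and 32.1% of genes with 0 of the same length. Chromatin and histone modification had 6 of its 150 genes among the members (4.11% of members, against 1.60% and 3.68%). All 6 matched genes had 3 centres and were 8260 to 11182 bp long. MBD9 (4 centres, 9265 bp) and ULT1 (3 centres, 2816 bp) were not matched, so this is not a trait of every chromatin gene among the members. HB-1, known as RLT1, is itself a DDT-domain partner of the ISWI remodellers, and INO80 and ATRX are remodelling ATPases. EFS and SDG2 are histone methyltransferases of active genes, and HAF01 is a TAF1-type subunit of the general transcription factor TFIID.

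Motors and the cytoskeleton had 5 of 85 genes (3.42% of members, against 1.86% and 2.67%). These were POK2 with 5 centres and CIP1, the actin-bundling villin VLN2, the myosin MYA1 and AT3G16270 with 3 each. AT3G16270 entered through a clone name, not through a known role. Cell wall synthesis had 5 of 126 genes (3.42%, against 2.64% and 2.11%). GSL03 had 5 centres, GSL04 and CALS1 had 4 each, and the cellulose synthase CESA1 and the cellulose synthase-like CSLD2 had 3 each.

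Ubiquitin and protein turnover had 4 of 137 genes (2.74%, against 1.60% and 0.854%): KAK and UPL2, the deubiquitinating enzyme UBP23 and the proteasome subunit RPN1B. Transcription regulators had 5 of 349 genes (3.42%, against 1.73% and 1.01%). CCT, HB-1 and HAF01 belong there by role. The homeodomain-leucine zipper genes HAT3 and HDG4, also members, were not matched, so the share does not measure all transcription regulators. ICU2 is the catalytic subunit of DNA polymerase alpha, and NUA, a nuclear pore protein, entered through a synonym.

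Membrane transport had 4 of 337 genes so named (2.74%, against 3.20% and 4.30%). These were the glutamate receptors GLR2 and GLR2.6, the calcium pump ACA10 and ABCA1. The sucrose transporter SUT4, also a member, was not matched, so the share is not that of all transporters. Metabolism had 4 of 148 (2.74%, against 1.75% and 3.48%), namely SPS2F, GLU1, the acyl-CoA synthetase LACS4 and the phosphoinositide kinase FAB1A. Vesicle traffic had 3 of 283 (2.05%, against 1.61% and 1.73%), namely GN, BIG and AT3G63460, which carries the synonym SEC31B of a vesicle coat protein. BIG, described above as required for auxin transport, entered through its name. DNA replication, repair and chromosome segregation had 3 of 153 (2.05%, against 3.54% and 2.72%). Of these, ATR is a checkpoint kinase and EMB2773 the cohesin loader SCC2, while ATM1 is a myosin that shares its name with the group's words.

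Kinases and receptors had 2 of 318 genes so named (1.37%, against 2.30% and 2.46%), RLP29 and HK3. Kinases named otherwise, such as ATR, were not counted here, so this is not the full set among the members. The immune receptors of the NLR class had 2 of 62 (1.37%, against 0.487% and 0.131%), of which DAR4 is such a receptor and EFS entered through a synonym. Small RNA, DNA methylation and RNA polymerases had 1 of 81 (0.685%, against 2.00% and 1.78%), GTA2. RNA processing had 1 of 56 (0.685%, against 1.45% and 0.705%), EMB2763, the exosome nuclease RRP44A.

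Translation had 7 of 331 (4.79%, against 3.93% and 5.82%), of which 6 entered through embryo-defective names and the other was ILA. Light, clock and flowering had 0 of 77 genes so named (0% of members, against 0.448% and 0.693%). As genes were matched by name, this does not show that no member has such a role. The cytochromes P450, a family with a median length of 2083 bp, had 0 of 252 (0%, against 0.378% and 0.342%). With 0.532% of all protein-coding genes among the members, counts of 0 in groups of these sizes are near the background share. These groups are small and share genes, and their shares are given as counts without a test.

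Families that held a member mostly held genes with few or no centres as well. The families were drawn up after the members were known. Of 12 callose synthases, 3 had 3 or more centres, 2 had 2, 5 had 1 and 2 had 0. GSL12 (11319 bp) and GSL11 (11154 bp), both close in length to GSL03 and CALS1, were the ones with 0. Of 17 myosins, 3 had 3 centres (MYA1, XIF and ATM1), 4 had 2, 5 had 1 and 5 had 0. Of 7 UPL-type ubiquitin ligases, KAK had 5 centres and UPL2 3, UPL1 had 2 in 13369 bp, 3 had 1 and UPL5 had 0.

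Of 10 cellulose synthases, 1 had 3 centres, 2 had 2, 4 had 1 and 3 had 0. Of 9 importin alpha genes, which encode nuclear import receptors, IMPA-1 and IMPA-2 had 3 centres each in 3843 and 3666 bp, 1 had 2, 5 had 1 and IMPA-7 had 0 in 4239 bp. Of 20 glutamate receptors, 2 had 3 centres, 9 had 1 and 9 had 0.

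**Figure D5:**
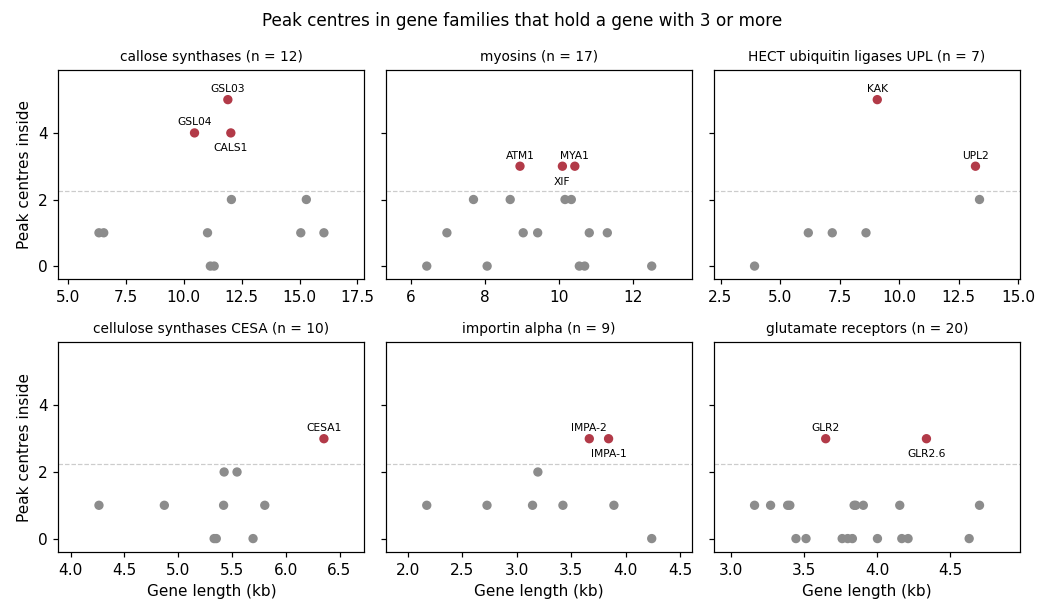
Number of peak centres (y axis) against gene length (x axis, kb) in 6 gene families, 1 point per gene; genes with 3 or more centres are above the dashed line and named. Genes of similar length within a family range from 0 to 5 centres in the callose synthases and from 0 to 3 in the myosins.

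Some close relatives differed in their counts, at nearly the same length or not. XPO1B, a nuclear export receptor, had 3 centres in 8396 bp, and XPO1A had 1 in 8338 bp. HB-1 (RLT1) had 3 in 8260 bp, and RLT2 had 1 in 7807 bp. ARABIDILLO-2 had 4 in 4757 bp, and ARABIDILLO-1 had 1 in 5156 bp. POK2 had 5 in 12530 bp, and POK1 had 1 in 10661 bp. HK3 had 4 in 5744 bp, HK2 had 0 in 5523 bp and WOL had 1 in 6725 bp. GLU1 had 4 in 8704 bp, GLU2 had 0 in 11298 bp and GLT1 had 1 in 10110 bp. Other relatives had closer counts. CALS1 had 4 in 12037 bp and GSL03 had 5 in 11909 bp. IMPA-1 and IMPA-2 had 3 each, and UPL1 had 2 in 13369 bp against 3 in 13199 bp in UPL2. The relatives were chosen for holding a member after values were seen, so a lower count in the other gene is part of the choice. Reads from near-identical relatives can be hard to place, and how uniquely reads map in these families was not tested.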

How the data were processed

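ChIP-seq was done on Arabidopsis seedlings, and 1 deposited peak list, of ZF-DDR5 replicate 1, was analysed. The authors' deposited file gives positions only (chromosome, start and end), with no count or score, so depth and precision per peak are unknown. The submitters' processing notes name deepTools 3.5.1, Picard 2.25.6, SAMtools, Bowtie2 2.4.2, fastp 0.20.1 and TAIR10. The peak caller, threshold, control, pooling and any limit on rows were not stated in the labels or the file.

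Gene spans came from the RefSeq table of TAIR10.1, which has 37899 loci. As that assembly and TAIR10 differ by name, coordinates are given for peaks and not for genes. All 27444 protein-coding genes of the 5 chromosomes were used. Members were compared with genes holding 1 or 0 centres in 5 length classes, weighted to the members. Function groups used words in symbols and synonyms.

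Genes are named by rule: all with 4 or more centres, the 12 densest, the 8 longest and 8 shortest, up to 6 per function group and FWA. Families and others were picked after values were seen. The members and lists were chosen with earlier results of these data known. Counting was tested on simulated intervals. Python 3.11.15, pandas 2.3.3, NumPy 2.4.6 and SciPy 1.17.1 were used.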

Additional observations from a re-analysis of the deposited data

How the results depend on the processing

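Of 67 alternative values, 53 stayed within the set limits and 14 moved outside. The limits were 1.5 times for counts, the SD over 5 chromosomes for medians and the Wilson interval for the share. A change of sign was not scored separately. The width difference changed sign, from -5.47 bp in the main count to 19.4 bp with the wider 50% of peaks. Whole peaks, moved gene edges, overlaps of 1 base, joined peaks, moved peaks and shared centres gave 118 to 159 genes in place of 146. With the wider 50% of peaks, 30 genes were left, with a median length of 9975 bp, 0.301 centres per kb, a spacing of 2033 bp, a share of 1.46% among genes over 5 kb and a width difference of 19.4 bp. The cause was not tested beyond the smaller number of peaks. The width difference was 4.67 bp with joined peaks and -5.47 bp in the main count, both within its spread. A limit of 2 centres gave 1066 genes, a median length of 3773 bp and a share of 19.4%. A limit of 4 gave 31 genes, 10436 bp, 0.460 per kb, a spacing of 1535 bp and a share of 1.65%. With symbols alone, 35 members fell in a function group in place of 46. No paired analysis was possible because the values come from 1 list and no test. Depth is unknown, and every count depends on how many peaks the authors' list keeps.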

Other observations

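Members of the list that stood closest together were AT1G26330 and AT1G26370 on chromosome 1, separated by 7695 bp, AT3G63460 and TTA2 on chromosome 3, by 8855 bp, and ARABIDILLO-2 and HAT3 on chromosome 3, by 9335 bp. They were picked for their distance after values were seen.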
